A study of Mus musculus with 44 samples.

Results

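The carboxylesterase family was described through 10 genes, namely Ces1b, Ces1c, Ces1d, Ces1e, Ces1f, Ces1g, Ces2a, Ces2c, Ces2e and Ces3a, out of 38202 genes in the tables. The members were chosen by gene name, with earlier values of the same liver and muscle libraries known, and were then found by matching their symbols to Ensembl identifiers. All 10 matched a single identifier. Another 10 genes of the family in the tables (Ces1a, Ces1h, Ces2b, Ces2d-ps, Ces2f, Ces2g, Ces2h, Ces3b, Ces4a and Ces5a) served for comparison.

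Liver and skeletal muscle were sequenced from 11 wild-type (WT) and 11 knockout (KO) mice, 44 libraries in all, and an animal number that occurs in both tissues marks the same mouse. Slc16a13, which encodes a monocarboxylate transporter, was deleted in the germline of the KO mice by CRISPR/Cas9, so that the deletion was not limited to a cell type. All mice were males on the C57BL/6N background, WT and KO were littermates, and every mouse had received a high-fat diet (HFD) for 15 weeks and was killed at 20 weeks of age. By the study's methods an overnight fast came before killing unless stated otherwise. There was no group on another diet.

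Carboxylesterases are serine hydrolases that cleave esters, amides and thioesters in lipids, drugs and other foreign compounds. Most are held in the lumen of the endoplasmic reticulum, and the liver is a main site of their expression. In the mouse, Ces1d (triacylglycerol hydrolase) and Ces1g (esterase-x) take part in the turnover of stored triacylglycerol and in lipoprotein assembly, and Ces1c is an esterase that is secreted into plasma. The Ces2 genes encode esterases with activity towards acylglycerols and many prodrugs.

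The deleted gene was checked first. Slc16a13 had 99 to 302 reads in the WT livers and 0 to 8 reads in the KO livers, a log2 fold change of -5.45 (SE 0.30, edgeR quasi-likelihood test, adjusted p = 2.81e-11). In muscle it had 4 to 22 reads in WT and 11 to 40 reads in the libraries labelled KO (log2 fold change 0.64, SE 0.22, edgeR adjusted p = 0.495). These levels were low, 0.18 to 0.87 CPM in WT and 0.45 to 1.08 CPM in the libraries labelled KO. The study describes a deletion of part of the promoter and the first exons. Where in the gene the muscle reads lie was not tested. Because the muscle reads go against the label, these are called muscle libraries labelled KO. Totals ranged from 20150712 to 35218243 reads per library. Within each gene, log2 CPM (counts scaled to library size) was centred on its mean over all livers, then fitted on log2 gene length. The slope is thus relative to this set of livers. It was below 0 in 4 KO livers, animals 532 (-0.53), 583 (-0.25), 602 (-0.42) and 611 (-0.08). In the 11 WT and the other 7 KO livers it was above 0, from 0.04 to 0.11. The 4 livers stand apart from their group, 611 the least. Log2 fold changes of the members in liver are shown with and without them, in the text or in the plot of these values. So is the median of the hepatocyte markers. Genotype fits of other genes in liver are given with them only. Hepatocyte markers summed to between 82829 and 145407 CPM in liver, and muscle fibre markers to between 120618 and 197057 CPM in muscle.

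The genes lie in a pair of clusters on chromosome 8 (GRCm38, GENCODE M21). The 6 Ces1 members lie on the minus strand between positions 93056728 and 93337308, and the 4 Ces2 and Ces3 members on the plus strand between 104734003 and 105058413. For each gene the GENCODE transcript with the longest coding sequence was used. These coding sequences were 71.4% to 88.8% identical within Ces1, 82.2% to 83.5% within Ces2 and 53.1% to 57.8% between the subfamilies. The closest pairs among all family genes were Ces3a with Ces3b (95.3%), Ces2c with Ces2b (91.3%) and Ces1b with Ces1c (88.8%). The deposited counts are of uniquely assigned reads, so a read that fits several such genes can be lost. With windows of 85 bases, the read length, the share of each transcript's windows that also occurs, without a mismatch, in another gene's transcripts was computed. It was 21.1% for Ces2c, 14.2% for Ces3a, 13.1% for Ces2a, 3.90% for Ces1c, 2.93% for Ces1b, 0.55% for Ces1e and 0% for Ces1d, Ces1f, Ces1g and Ces2e. Values of Ces2c, Ces3a and Ces2a are therefore uncertain. Ces2c shared windows with Ces2b, Ces2d-ps, Gm6831 and Gm8798, Ces3a with Ces3b, and Ces2a with Gm7208.

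The ends of 5 coding sequences are shown because they mark a known difference within the family. In carboxylesterases of the endoplasmic reticulum the last 4 codons before the stop encode the retention signal. A match to it was found in 7 of the 10 members and not in Ces1b, Ces1c and Ces3a, a set that holds both of the most abundant members in liver. The last 4 codons and the stop are in capitals.
Ces1b: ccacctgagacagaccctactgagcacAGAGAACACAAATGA
Ces1c: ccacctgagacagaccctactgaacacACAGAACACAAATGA
Ces3a: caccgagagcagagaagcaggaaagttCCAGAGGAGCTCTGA
Ces1d: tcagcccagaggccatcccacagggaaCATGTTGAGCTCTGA
Ces2c: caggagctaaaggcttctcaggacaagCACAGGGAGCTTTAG

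Promoters are shown for genes whose levels are compared below (RefSeq, GRCm38.p6, windows of 300 bases that hold a listed transcription start). A promoter was listed for 7 of the 10 members. Those of Ces1b (the first of its listed starts, chr8:93079891-93080190, minus strand) and Ces1c (chr8:93131234-93131533, minus strand) were 80.3% identical, and the longest run that they share without a mismatch, 58 bases, is in capitals.
Ces1b: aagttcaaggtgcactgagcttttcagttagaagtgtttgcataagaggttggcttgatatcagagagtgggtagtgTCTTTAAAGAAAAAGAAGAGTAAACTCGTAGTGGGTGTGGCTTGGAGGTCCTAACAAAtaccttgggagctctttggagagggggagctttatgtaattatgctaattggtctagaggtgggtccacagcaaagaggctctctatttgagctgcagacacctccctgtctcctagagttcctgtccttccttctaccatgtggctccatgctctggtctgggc
Ces1c: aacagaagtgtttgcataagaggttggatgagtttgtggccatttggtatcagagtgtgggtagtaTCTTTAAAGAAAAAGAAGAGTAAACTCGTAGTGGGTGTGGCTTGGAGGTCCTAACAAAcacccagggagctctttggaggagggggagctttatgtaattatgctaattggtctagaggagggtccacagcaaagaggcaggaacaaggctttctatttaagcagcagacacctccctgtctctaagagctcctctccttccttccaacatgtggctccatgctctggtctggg

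Ces2a (chr8:104733753-104734052, plus strand) and Ces2e (chr8:104926010-104926309, plus strand) were 52.9% identical over the same window. Capitals mark matches to CCAAT or to the nuclear receptor motif AGGTCA on either strand.
Ces2a: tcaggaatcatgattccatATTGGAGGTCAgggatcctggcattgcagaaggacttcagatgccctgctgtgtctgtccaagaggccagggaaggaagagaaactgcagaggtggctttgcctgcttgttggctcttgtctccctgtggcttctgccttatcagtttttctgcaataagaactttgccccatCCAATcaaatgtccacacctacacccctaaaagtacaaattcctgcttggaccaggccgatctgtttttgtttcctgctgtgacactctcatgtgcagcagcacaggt
Ces2e: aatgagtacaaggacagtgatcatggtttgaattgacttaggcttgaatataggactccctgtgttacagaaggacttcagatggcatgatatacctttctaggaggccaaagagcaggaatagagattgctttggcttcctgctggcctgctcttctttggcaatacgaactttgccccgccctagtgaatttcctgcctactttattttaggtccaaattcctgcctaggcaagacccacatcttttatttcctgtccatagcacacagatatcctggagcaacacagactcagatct

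CCAAT occurred in the promoters of Ces1b, Ces1c, Ces1g, Ces2a and Ces2c and in 37.4% of all 32851 promoters in the table. AGGTCA occurred in that of Ces2a and in 16.3% of all promoters, and TATAAA in that of Ces1g and in 13.6%. The letters GTTAAT (HNF1), CAAAGTCCA (HNF4) and CACGTG (E-box) had no match in the 7 members' windows and occurred in 7.10%, 0.47% and 7.15% of all promoters. None of these searched motifs overlapped another in the sequences shown.

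In WT liver the members spanned a wide range of levels. On the RPKM scale (reads scaled to gene length and sequencing depth, as deposited), Ces1c was highest at 1151 ± 126 (SD, n = 11), with a lowest, median and highest mouse of 911, 1187 and 1349. Ces3a followed at 879 ± 104, from 754 through a median of 843 to 1038. Ces1d was at 458 ± 78.4 and Ces1f at 256 ± 26.3. Each of these 4 genes was above the next in order in 11 of 11 WT livers and in 11 of 11 KO livers. Together Ces1c and Ces3a made up 56.8% to 63.4% of the summed RPKM of the 20 family genes in WT livers, and the 10 members 93.3% to 96.5%.

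The middle of the order was less sharply divided. Ces2e was at 127 ± 23.8 RPKM, Ces1g at 114 ± 19.2, Ces1e at 92.8 ± 12.5 and Ces2a at 74.9 ± 15.0 (SD, n = 11 WT livers). Ces2e exceeded Ces1g in 7 of 11 WT livers, so that their order does not stand out from the spread between mice. Ces1g exceeded Ces1e in 9 of 11. When reads were divided by the length of the annotated GENCODE transcript instead, Ces1g came before Ces2e. Ces1b was at 37.1 ± 4.6 RPKM and Ces2c was lowest at 16.6 ± 4.0. The RPKM of Ces2c rests on a shorter length than that of the others: the deposited counts and RPKM imply 809 bases, against 1970 bases in GENCODE, but Ces2c was also the lowest of the 10 by annotated length.

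**Figure D1:**
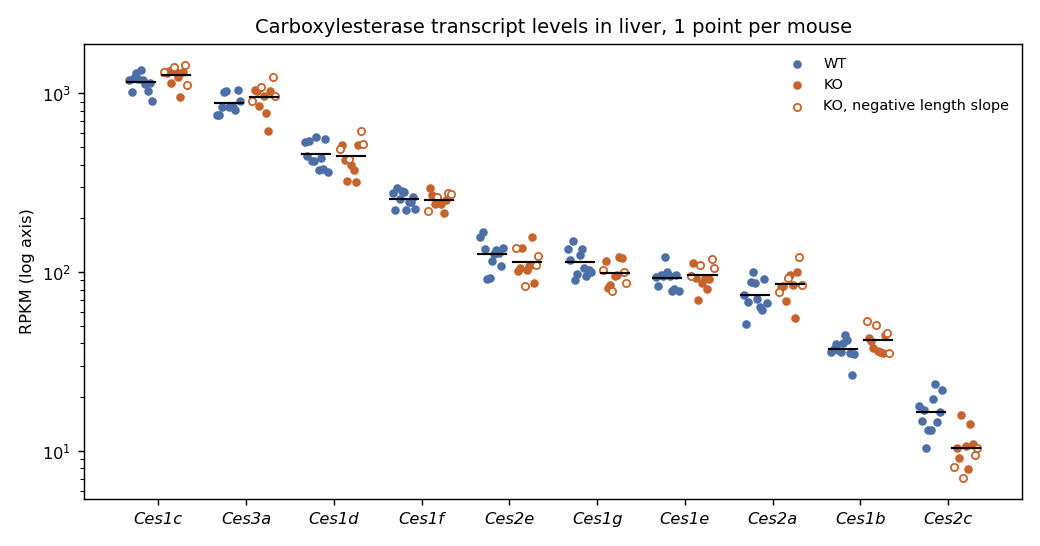
RPKM of the 10 carboxylesterase genes (log axis) in 11 WT and 11 KO livers, 1 point per mouse, with the group mean as a bar and the 4 KO livers with a negative slope on gene length as open circles. Ces1c and Ces3a are highest in both genotypes, Ces2c is lowest, and the genotypes overlap for every gene.

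Mouse-to-mouse variation within WT livers was largest for Ces2c (coefficient of variation of CPM 25.7%) and Ces2a (23%) and lowest for Ces1f (11.8%) and Ces1b (12.2%). The median over the 13005 genes tested in liver was 12.1%, and over the genes at least as abundant as the lowest member 8.48%. Apart from Ces1f, every member was thus above the first of these medians, and all 10 were above the second.

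The question of the KO and WT livers is whether loss of the transporter changes hepatic transcripts under HFD. None of the 10 members passed the adjusted threshold of 0.05 in liver (edgeR quasi-likelihood test, 13005 genes tested, of which 0.0231% were called). At an unadjusted p under 0.05, Ces1b and Ces1c were higher and Ces2c was lower, 3 of 10 members against 12.9% of all genes tested. DESeq2 and limma-voom also called 0 of 10. The median log2 fold change of the members was 0.11, beside -0.01 over all genes tested, and 6 of 10 had a higher mean in KO.

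Ces2c, an esterase of the Ces2 group, had the largest difference among the members. It ranged from 8.46 through a median of 11.9 to 17.96 CPM in WT livers and from 6.49 through 8.11 to 13.6 CPM in KO livers. The groups overlapped, with 6 of 11 KO livers below the lowest WT liver and 10 of 11 below the WT median. The log2 fold change was -0.56 (SE 0.14, edgeR p = 0.000465, adjusted p = 0.382), and without the 4 KO livers of negative length slope it was -0.51 (adjusted p = 0.999). Reads were 165 to 609 per WT library and 161 to 285 per KO library. Ces2b, its closest relative, had 31 reads over all WT livers and 13 over all KO livers.

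Ces1b and Ces1c, whose promoters are shown above, were among the 6 members with a higher mean in KO. Ces1b ranged from 52.8 through 70.3 to 85.3 CPM in WT and from 66.3 through 82.4 to 109.7 CPM in KO, with a log2 fold change of 0.24 (SE 0.10, edgeR p = 0.0196, adjusted p = 0.382). The 3 highest KO livers for Ces1b, animals 532, 583 and 602, at 102.8 to 109.7 CPM, were all among the 4 with a negative length slope, while the 7 other KO livers ranged from 66.3 to 89.9 CPM. Without those 4 livers its log2 fold change was 0.11 (edgeR adjusted p = 0.999). Ces1c ranged from 1575 through 2116 to 2508 CPM in WT and from 1664 through 2440 to 3023 CPM in KO (log2 fold change 0.20, SE 0.09, edgeR p = 0.0423, adjusted p = 0.382), and its value without those 4 livers was 0.12. The part of the length slope in these differences was not tested.

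The triacylglycerol hydrolase Ces1d differed little between the genotypes. It ranged from 661 through 816 to 1125 CPM in WT livers and from 587 through 822 to 1179 CPM in KO livers, and the log2 fold change was -0.04 with a 95% interval (normal approximation from the SE) of -0.26 to 0.19 (edgeR adjusted p = 0.868). Ces1g, also linked to lipid turnover, ranged from 225 through 248 to 340 CPM in WT and from 199 through 234 to 295 CPM in KO, with a log2 fold change of -0.15 and an interval of -0.33 to 0.04. Ces1f, another enzyme of the Ces1 group, had a log2 fold change of 0.07 and an interval of -0.09 to 0.22. A p that misses the threshold does not show that these levels were alike, and the intervals bound the differences compatible with each fit.

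Ces3a ranged from 1410 through 1683 to 2144 CPM in WT livers and from 1194 through 2000 to 2871 CPM in KO livers. Its log2 fold change was 0.19 (SE 0.11, edgeR adjusted p = 0.405), falling to 0.06 without the 4 KO livers of negative slope. Ces2a had a log2 fold change of 0.27 (SE 0.14, edgeR adjusted p = 0.384) and Ces2e of -0.09 (SE 0.10, edgeR adjusted p = 0.611). Ces1e had one of 0.15 (SE 0.11, edgeR adjusted p = 0.446), which was -0.01 without those 4 livers. Of the hepatocyte markers, 8 of 8 had a higher mean in KO livers, with a median log2 fold change of 0.31. By the edgeR test 0 of 8 passed the adjusted threshold, and 5 of 8 had an unadjusted p under 0.05, beside 12.9% of all genes. Without the 4 livers of negative slope, a fit added after the values were seen, 6 of 8 had a higher mean, the median was 0.07 and 0 of 8 had an unadjusted p under 0.05, beside 2.96% of all genes. Their summed level was 82829 to 114550 CPM in WT livers, 93404 to 115848 CPM in the 7 other KO livers and 111668 to 145407 CPM in those 4. The part of these markers in the members' values was not tested. In bulk samples such as these, the number of cells of a type and the RNA per cell cannot be told apart.

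**Figure D2:**
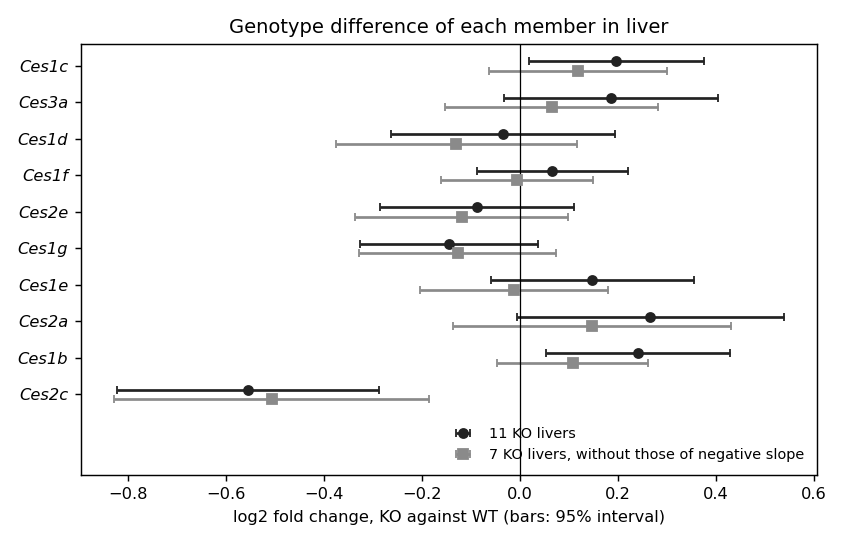
Log2 fold change of each member in liver, KO against WT, from edgeR fits with all 11 KO livers (circles) and with the 7 whose slope on gene length was not negative (squares). Bars are 95% intervals. Ces2c lies at -0.56 and -0.51, and the value of Ces1b moves from 0.24 to 0.11.

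Of the rest of the family, 3 genes were abundant enough to be tested in liver. Ces3b, the near copy of Ces3a, had a log2 fold change of 0.12 (edgeR adjusted p = 0.769), Ces2g one of -0.24 (adjusted p = 0.382) and Ces4a one of 0.37 (adjusted p = 0.508) in the edgeR test. The other 7 had at most 18 reads in any liver.

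Other esterases and neutral lipases and the transcription factors known to act on genes of drug and lipid metabolism were counted from lists. Of 14 esterases and lipases tested in liver, 0 passed the adjusted threshold in edgeR, and at an unadjusted p under 0.05 there were 1 higher and 2 lower, 3 of 14 beside 12.9% of all genes (0.0231% at the adjusted threshold). The 2 with the smallest p were Lipc, hepatic lipase, with a log2 fold change of 0.27, and Pon3, a paraoxonase, with -0.19. Of 10 factors tested in liver, 0 passed, and 1 was higher at an unadjusted p under 0.05, again beside 12.9%. The smallest p values belonged to Nr1i3 and Nr1i2, the xenobiotic receptors CAR and PXR, with log2 fold changes of 0.23 and 0.18. The liver values of both lists include the 4 KO livers of negative slope. Without those livers, 2.96% of all genes had an unadjusted p under 0.05 (edgeR). In muscle 0 of 12 esterases and lipases and 0 of 6 factors passed, beside 0.00754% of all genes, and 0 of either list had an unadjusted p under 0.05, beside 8.64% (edgeR). Pon3 and Lipa, the lysosomal acid lipase, had the smallest p in muscle, with log2 fold changes of 0.10 and 0.30, and Cebpa and Rxra among the factors, with 0.40 and -0.05.

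Some members, but not all, varied together from liver to liver. Across the 11 WT livers, Pearson correlations of log2 CPM were computed for all 45 pairs, with two-sided permutation tests (100000 resamples) and Benjamini-Hochberg adjustment over the 45. Of these, 10 pairs passed for Pearson r, 8 positive and 2 negative, and 2 passed for Spearman rho. The median r over the 45 pairs was 0.17, with 26 positive and 19 negative, and Ces1b, Ces1g and Ces2c were in no pair that passed. When CPM were scaled by library size alone, 2 pairs passed, both negative pairs of Ces2e, and 0 of the 8 positive pairs did. In the 11 KO livers 17 pairs passed for r and 6 for rho, and all 17 were positive. Of the 10 WT pairs, 10 had the same sign and 8 passed in the KO livers too. In the 7 KO livers without a negative slope, 1 pair passed for r and 0 for rho. It was Ces1d with Ces2e (r = -0.94), a pair not among the 10, and 0 of those 10 passed in these 7 livers. All 10 had the same sign there as in WT, and the median r over the 45 pairs was 0.365. With 7 livers a larger r is needed to pass than with 11, so this count does not show that the relations were absent. No sequencing batch was given in the labels, and within-batch values could therefore not be computed. The total count itself had correlations with the members from -0.56 to 0.32 across WT livers and from -0.57 to 0.76 across KO livers. The length slope had correlations with them from -0.28 to 0.76 across WT livers, highest for Ces1d (0.76), Ces1f (0.59) and Ces2a (0.54), and from -0.78 to 0.18 across KO livers, lowest for Ces1b (-0.78), Ces1e (-0.65) and Ces1c (-0.56). The part of the slope and of the scaling in the correlations was not tested.

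The 8 positive pairs that passed in WT livers were among Ces1c, Ces1d, Ces1e, Ces1f, Ces2a and Ces3a. Ces1e and Ces2a had r = 0.86 and rho = 0.88 in WT livers (permutation test, adjusted p = 0.009 and 0.036, n = 11). Without the 2 mice farthest from the median of Ces1e, r was 0.83 in WT. In KO livers r was 0.77 and rho 0.45 (permutation test, adjusted p = 0.0207 and 0.326, n = 11), and r was 0.56 without the 2 farthest mice. Ces1c and Ces1e had r = 0.79 and rho = 0.85 in WT (permutation test, adjusted p = 0.0312 and 0.036, n = 11), and r = 0.69 without the 2 farthest mice. In KO livers they had r = 0.77 and rho = 0.62 (permutation test, adjusted p = 0.0196 and 0.154, n = 11), with r = 0.56 without the 2 farthest. Ces1d and Ces1f had r = 0.76 and rho = 0.73 in WT (permutation test, adjusted p = 0.043 and 0.0653, n = 11) and r = 0.84 and rho = 0.78 in KO (adjusted p = 0.00862 and 0.049 in the permutation test), with r of 0.75 and 0.64 without the 2 farthest mice. Ces1c and Ces1f had r = 0.79 and rho = 0.75 in WT (permutation test, adjusted p = 0.0312 and 0.0642, n = 11), with r = 0.56 without the 2 farthest mice. In KO livers they had r = 0.78 and rho = 0.52 (permutation test, adjusted p = 0.0196 and 0.242, n = 11), with r = 0.27 without the 2 farthest. Ces1b and Ces1c, the pair with similar promoters, did not pass in WT (r = 0.38, permutation test, adjusted p = 0.391, n = 11). Their r was 0.80 in KO livers (adjusted p = 0.00956 in the permutation test) and 0.71 in the 7 without a negative slope (adjusted p = 0.115).

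**Figure D3:**
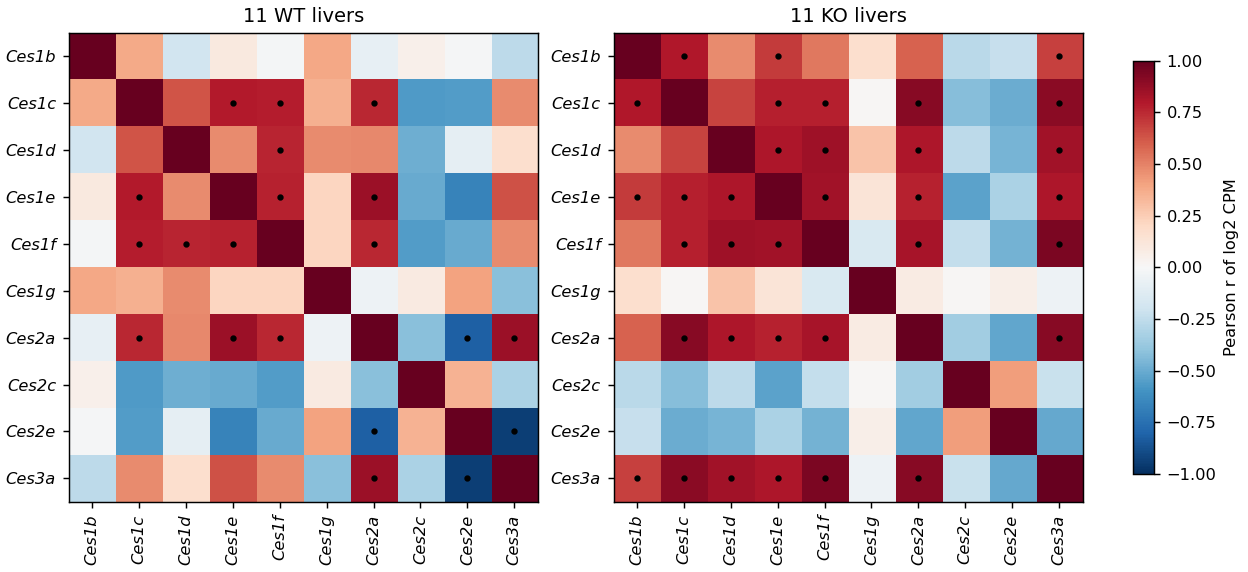
Pearson r of log2 CPM for all pairs of the 10 members across 11 WT livers (left) and 11 KO livers (right), from -1 (blue) to 1 (red), with a dot where the permutation p adjusted over 45 pairs was under 0.05. Both panels have a red block of Ces1c, Ces1d, Ces1e, Ces1f and Ces2a, and Ces2e is blue against Ces3a and Ces2a.

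Ces2e ran against Ces3a and Ces2a. In WT livers Ces2e and Ces3a had r = -0.94 and rho = -0.80 (permutation test, adjusted p = 0.0018 and 0.0642, n = 11), and without the 2 mice farthest from the median of Ces2e r was -0.89. The livers of animals 516 and 528 had the highest Ces2e, 313 and 316 CPM, and the lowest Ces3a, 1495 and 1410 CPM. The livers of animals 536 and 537 had the lowest Ces2e, 194 and 191 CPM, with Ces3a at 2144 and 2096 CPM. Ces3a had a gap between 1740 and 2096 CPM that set 3 WT livers (536, 537 and 623) apart, and within the other 8 r of Ces2e with Ces3a was -0.89. In the KO livers r was -0.51 and rho -0.63 (permutation test, adjusted p = 0.204 and 0.154, n = 11), and in the 7 without a negative slope r was -0.87 (adjusted p = 0.0583 in the permutation test). The KO liver of animal 602, one of the 4 with a negative slope, was highest in Ces3a at 2871 CPM with 257 CPM of Ces2e. Whether r differed between the genotypes was not tested.

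Ces2a and Ces3a, which lie in the same cluster as Ces2e, varied in the same direction. They had r = 0.86 in WT (permutation test, adjusted p = 0.009, n = 11) and r = 0.91 in KO livers (adjusted p = 0.00461), with rho of 0.75 and 0.76, neither of which passed after adjustment. Within the 8 WT livers below the gap in Ces3a, r was 0.65. Ces2a and Ces2e had r = -0.82 in WT (permutation test, adjusted p = 0.0244, n = 11), -0.54 within those 8, and -0.52 in KO livers. In the 7 KO livers without a negative slope their r was -0.93 (adjusted p = 0.0506 in the permutation test).

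**Figure D4:**
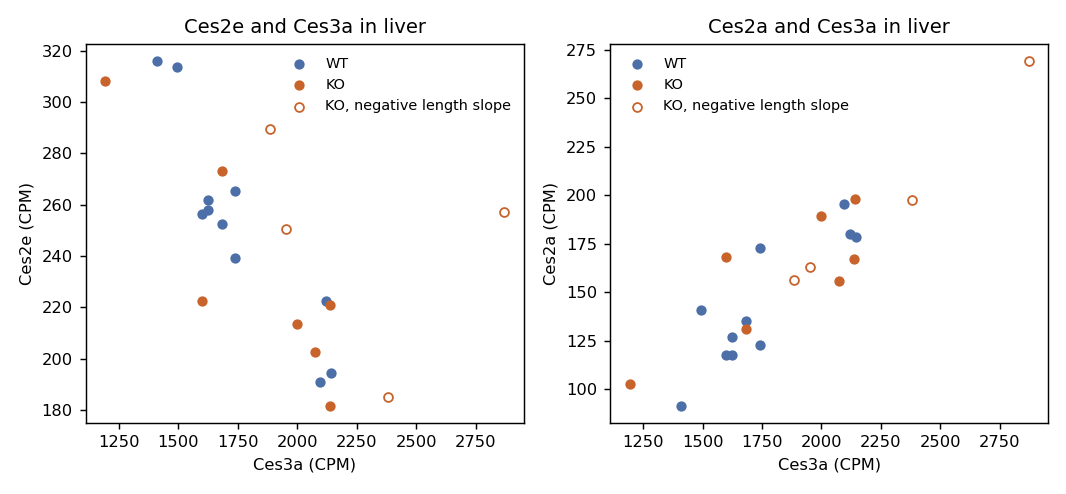
CPM of Ces2e (left) and Ces2a (right) against CPM of Ces3a, 1 point per liver, in 11 WT and 11 KO mice, with the 4 KO livers of negative length slope as open circles. In WT livers Ces3a spans 1410 to 2144 CPM, and the livers low in Ces3a are high in Ces2e (up to 316 CPM) and low in Ces2a (down to 91.6 CPM).

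The genes outside the family whose pattern was most like the mean of the 10 standardized members, over 22 livers with the genotype means removed, were Akr1c6, an aldo-keto reductase (r = 0.86), Rbpms2, an RNA-binding protein (r = 0.84), and Upb1, an enzyme of pyrimidine breakdown (r = 0.83). Their correlations with the length slope across the same livers were -0.62, -0.68 and -0.60.

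Muscle held mainly Ces1d. It had 1448 to 3091 reads per WT muscle and 1741 to 4438 reads in muscles labelled KO, at 43.7 ± 8.2 and 46.1 ± 16.9 RPKM (SD, n = 11 each), and made up 91.9% to 98.5% of the family's summed RPKM. Within a mouse, Ces1d was 6.64 to 15.0 times higher in liver than in muscle in WT (median 10.4) and 5.47 to 12.6 times in KO (median 9.69), as CPM over all reads. Ces1f had 2 to 71 reads in WT muscles and 10 to 271 in muscles labelled KO, and Ces1e 4 to 14 and 4 to 18 reads. The remaining 7 members had 0 to 14 reads per muscle library when summed, 63 reads over all 22. Ces1b and Ces2a had no read in any WT muscle. With 3 reads over the 11 mice taken as the floor, their liver level was 7079-fold and 14188-fold higher. The lower 95% counting limits were 5756-fold and 11538-fold. Floors and counting intervals cover counting error only.

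Summed, the few reads of those 7 members were 4.54 per 100 hepatocyte marker reads in muscle and 4.50 per 100 in liver. Single members did not all keep this ratio, as the sum in liver was mostly Ces1c and Ces3a. Ces3a had 495903 reads in WT livers and 550525 in KO livers, with 3 and 17 in the muscles. Ces2c had 3684 and 2375 reads in the livers, with 4 and 4 in the muscles. The 5 muscle libraries with 6 or more reads of the 7 members (WT 616 and, labelled KO, 532, 597, 602 and 611) had 56 to 256 hepatocyte marker reads, and the other 17 had 8 to 71. In WT muscles the medians of Apoa1, Apoc3 and Ttr were at 0. By the same ratio Ces1d stood at 3682 reads per 100 hepatocyte marker reads in muscle and 0.80 in liver, Ces1f at 72.2 and 0.44, and Ces1e at 14.9 and 0.17.

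None of the members passed in muscle. Only Ces1d and Ces1f were abundant enough to be tested, and 0 of 2 passed the adjusted threshold, beside 0.00754% of the 13266 genes tested, and 0 of 2 an unadjusted p under 0.05, beside 8.64% (edgeR quasi-likelihood test, with DESeq2 and limma-voom also at 0). Ces1d ranged from 65.5 through 88.2 to 103.1 CPM in WT and from 64.8 through 80.6 to 171.7 CPM in muscles labelled KO, with a log2 fold change of 0.05 (SE 0.13, edgeR adjusted p = 0.938). Ces1f ranged from 0.09 through 0.55 to 2.77 CPM in WT and from 0.39 through 0.86 to 9.87 CPM in muscles labelled KO. Its log2 fold change was 1.14 (SE 0.59, edgeR p = 0.0652, adjusted p = 0.605), and 2 of the 11 lay above the highest WT muscle.

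Those 2 muscles, animals 561 and 611, also held the most adipocyte transcripts. They had 5787 and 6262 reads of Adipoq, the adipocyte hormone adiponectin, against 486 to 2890 in WT, and 255 and 271 reads of Ces1f. All 7 adipocyte markers had a higher mean in muscles labelled KO. By edgeR 0 of 7 passed the adjusted threshold, and 1 had an unadjusted p under 0.05, beside 8.64% of all genes. Their summed level ranged from 264 through a median of 448 to 808 CPM in WT. In muscles labelled KO it ranged from 343 through 485 to 1766 CPM. Median summed reads were 12762 in WT and 12354 in muscles labelled KO. None of the 7 was at a median of 0. In a fit without these 2 libraries, chosen after the values were seen, the log2 fold change of Ces1f was -0.37 (SE 0.40, edgeR adjusted p = 0.771) and that of Ces1d -0.13 (SE 0.08, edgeR adjusted p = 0.551).

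Ces1f also followed the adipocyte markers among WT muscles, a group that does not hold those 2 libraries. With the mean log2 CPM of the 7 markers it had r = 0.92 and rho = 0.91 (permutation test, adjusted p = 0.0003 and 0.00174 over 6 relations, n = 11), and r = 0.86 without the 2 farthest mice. Ces1d had r = 0.71 and rho = 0.65 (permutation test, adjusted p = 0.0568 and 0.0998, n = 11). In muscles labelled KO, Ces1f had r = 0.89 and rho = 0.47 and Ces1d r = 0.83 and rho = 0.39 (permutation test, adjusted p = 0.0296, 0.356, 0.0229 and 0.356, n = 11). Without animals 561 and 611 these r were -0.09 and 0.04, so that both relations rest on these samples there. Neither gene passed with the hepatocyte markers, with r from -0.32 to 0.22 over both groups. Ces1e passed with neither list in either group.

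**Figure D5:**
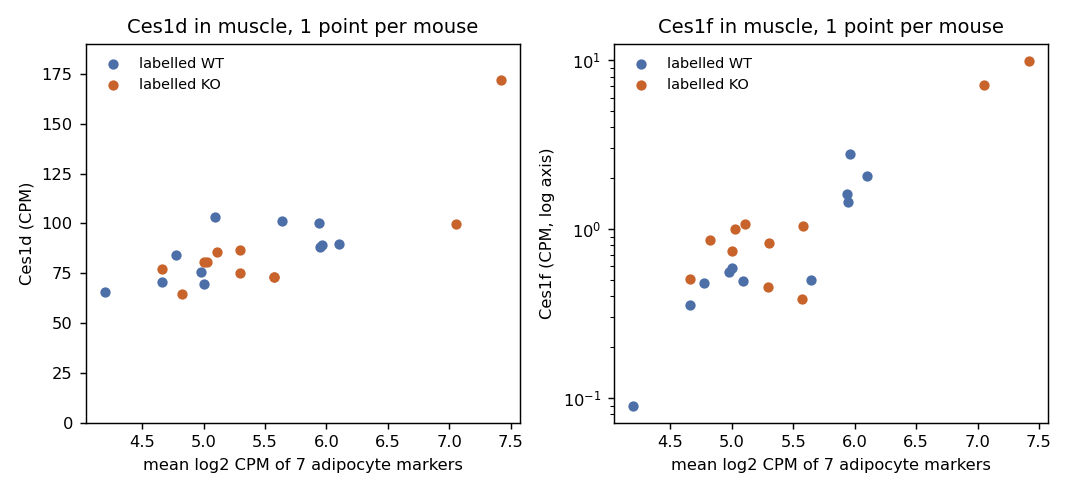
CPM of Ces1d (left, linear axis) and Ces1f (right, log axis) in muscle against the mean log2 CPM of 7 adipocyte markers, 1 point per mouse, 11 WT and 11 labelled KO. The 2 points farthest right are the libraries labelled KO of animals 561 and 611, which have the highest Ces1f values.

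Whether the genotype difference itself differed between the tissues was tested with a genotype by tissue term over all 44 libraries. The main fit treated liver and muscle of the same mouse as independent. It took the muscle labels as given, although the Slc16a13 reads in muscles labelled KO went against them. Only Ces1d and Ces1f had enough reads in muscle for the term to be read. The other 8 members entered the fit through their liver counts, so no call is given for them. Of these 2 members, 0 passed the adjusted threshold (edgeR quasi-likelihood test, 14739 genes tested, of which 0.00678% were called) and 0 had an unadjusted p under 0.05, beside 16.2% of all genes. DESeq2 and limma-voom also called 0 of 2. For Ces1d the difference, muscle minus liver, was 0.07 in log2 fold change (SE 0.18, edgeR adjusted p = 0.864). For Ces1f it was 1.07 (SE 0.55, edgeR p = 0.0571, adjusted p = 0.32), but 0.50 with the mouse as replicate block (edgeR adjusted p = 0.642) and -0.44 without the muscles of animals 561 and 611 (SE 0.35, edgeR adjusted p = 0.518).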

How the data were processed

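Poly(A) RNA libraries of the 44 samples were read as single ends of 85 bases with a stranded kit. The authors deposited uniquely assigned read counts per gene and RPKM values per gene for the same libraries; the aligner, counter and genome build are not given in the sources used here, and limma is the tool named in the submitters' processing notes. Deposited RPKM and counts imply a gene length that varied between libraries by up to 21.6% for Ces2c and 20.9% for Ces1d, so RPKM served for levels and counts for tests. Symbols were found for 36340 identifiers. The members and lists were chosen with earlier results of these data known. All members are named; of the other lists, genes past the threshold or the 2 with the smallest p are named.

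Counts were fitted with edgeR 4.0.16 (TMM, filterByExpr, quasi-likelihood F-test, R 4.3.3), liver and muscle separately and jointly for the genotype by tissue term, with Benjamini-Hochberg adjustment over all genes. CPM are TMM-scaled, and log2 CPM carry a prior count of 2. On simulated counts, 89.5% of 200 genes changed by 1 on the log2 scale were recovered in liver (12902 genes) and 96.5% in muscle (13182 genes). There 5 and 6 other genes were called. The simulation held no length slope and no smaller change, so it does not give the recovery of differences as small as those of the members in liver. Alternatives were DESeq2 1.42.0, limma 3.58.1, other scalings and filters, RPKM, a gene-length offset and leaving out libraries. No library duplicated another. The labels number the animals, and the same number in both tissues is the same mouse, so the mouse served as replicate block in an alternative for the tissue comparison. Within a tissue, p-values set a difference or relation against the variation between the mice sampled here. The main genotype by tissue fit took the libraries of a mouse as independent, so its p-values do not rest on mice alone.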

Additional observations from a re-analysis of the deposited data

How the results depend on the processing

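The count of members called was 0 of 10 in liver, 0 in muscle and 0 for genotype by tissue under every alternative run, including each mouse left out in turn (0 to 0 in liver and 0 to 0 in muscle) and, for the tissue comparison, the mouse as replicate block (0). With that block the difference between tissues in the log2 fold change of Ces1f was 0.50 in place of 1.07, and that of Ces1d 0.05 in place of 0.07; no call changed. For the 8 members with too few muscle reads the count of 0 says nothing about stability. Without the 4 livers of negative length slope, Ces1e in liver was -0.0125 and Ces1f -0.0064, and on the RPKM scale Ces1f was -0.0107 with either pseudocount. Leaving out a mouse moved Ces1d in liver from -0.0849 to 0.0088 and in muscle from -0.0949 to 0.0845; it was 0.0088 without WT 567, 0.0042 without KO 570 and 0.0071 without KO 597 in liver, and -0.0949 without 561 in muscle. Ces1f in muscle ranged from 0.54 to 1.41 with each mouse left out, and without 561 and 611, an alternative chosen after seeing the data, Ces1f was -0.3669 and Ces1d -0.1339 in muscle, with differences between the tissues of -0.4369 and -0.1022. The median of the 8 hepatocyte markers in liver went from 0.31 to 0.07 without the 4 livers of negative slope, also chosen after seeing the data. Ces2c in liver kept its direction, from -0.64 to -0.49 with each mouse left out. Of the correlated pairs, 2 in place of 10 passed with library size alone, and both were among the 10; the pairs of Ces2e with Ces3a (-0.89) and Ces2a (-0.84) were these. With gene length removed or another prior count the same 10 passed. In KO livers 17 passed, and 1 in the 7 without a negative slope, where all 10 WT pairs kept their sign. The causes were not tested. Ces1f could not be fitted with at least 10 counts in every muscle library. Members with under 10 reads per muscle library are limited by depth.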
